A study of Mus musculus with 576 samples.

Results

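The Hox genes are the 39 genes, of 36658 in the count tables, whose symbol is Hox followed by a cluster letter from a to d and a number. They were measured at embryonic day 12.5 in 576 single cells of the mouse dorsal pancreas. Each cell was sorted into a well of its own and turned into a library there (Smart-seq2). GFP-positive cells were sorted from 3 mouse lines, with 2 plates of 96 wells for each line. Cells of Tg(Nkx2.5-Cre;mTmG) embryos filled plates 6A and 6B, those of Tg(Nkx3.2-Cre;mTmG) embryos plates 7A and 7B, and those of Tg(Prox1-EGFP) embryos plates 8A and 8B. In the Cre lines the mTmG reporter turns on GFP where Cre has been expressed, under the control of Nkx2.5 or Nkx3.2, and it stays on in all descendants, so GFP reports the history of a cell. In the Prox1-EGFP line GFP comes from a transgene that follows Prox1, which is expressed in the pancreatic epithelium and in part of the mesenchyme. No further treatment or allele is named, and the labels give no animal, embryo or litter. Each line was therefore taken as 1 sample, cells were not treated as replicates, no test was possible, and the spread between the 2 plates of a line is the only error available. Every plate held a single line and the library numbers of the Prox1-EGFP line form a series of their own, which means that line, plate and library batch cannot be told apart.

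Hox genes encode homeodomain transcription factors that give cells along the head-to-tail axis their positional identity. In mammals they lie in 4 clusters that arose by duplication, and genes at the same place in different clusters form a paralog group, numbered from the 3′ end of the cluster. Low-numbered genes are switched on early and reach far toward the head, whereas high-numbered genes are switched on late and stay near the tail, a relation known as colinearity. The mesoderm around the gut keeps such a code into organ stages, while the foregut endoderm that gives rise to the pancreas forms at the level of the low groups. On GRCm38, the Hoxa cluster (11 genes) spans 52155590 to 52260880 of chromosome 6 on the minus strand. The Hoxb cluster (10 genes) spans 96194316 to 96368256 of chromosome 11, the Hoxc cluster (9 genes) 102921103 to 103036852 of chromosome 15, and the Hoxd cluster (9 genes) 74668310 to 74765142 of chromosome 2, all on the plus strand.

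The upstream sequences of 4 genes are shown because they represent the states seen below, with Hoxa2 and Hoxa5 on in mesenchyme, Hoxb8 low, and Hoxa9 nearly silent. Each is the 250 bases that end just before the transcript start, read 5′ to 3′ on the strand of the gene, from RefSeq on GRCm38.p6. The capitals mark matches on either strand to TGATNNAT (bound by Hox with Pbx), TGACAG (bound by Meis) or TTTATNG (bound by Cdx and posterior Hox proteins). The Hoxa2 window (chr6:52164832-52165081, minus strand) held a Hox-Pbx match and a Meis match, the Hoxb8 window (chr11:96281655-96281904, plus strand) held 3 TTTATNG matches and a Hox-Pbx match, and the windows of Hoxa5 (chr6:52204588-52204837) and Hoxa9 (chr6:52227371-52227620), both on the minus strand, held none.
Hoxa2: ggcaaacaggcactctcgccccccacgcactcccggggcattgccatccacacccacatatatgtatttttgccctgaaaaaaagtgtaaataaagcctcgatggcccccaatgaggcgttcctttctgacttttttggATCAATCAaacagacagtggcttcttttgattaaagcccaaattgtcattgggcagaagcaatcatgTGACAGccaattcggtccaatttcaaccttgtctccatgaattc
Hoxa5: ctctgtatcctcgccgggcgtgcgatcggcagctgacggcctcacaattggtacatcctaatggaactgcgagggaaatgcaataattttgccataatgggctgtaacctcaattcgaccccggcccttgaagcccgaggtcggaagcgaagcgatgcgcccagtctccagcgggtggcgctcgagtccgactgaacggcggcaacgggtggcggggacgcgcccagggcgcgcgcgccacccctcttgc
Hoxa9: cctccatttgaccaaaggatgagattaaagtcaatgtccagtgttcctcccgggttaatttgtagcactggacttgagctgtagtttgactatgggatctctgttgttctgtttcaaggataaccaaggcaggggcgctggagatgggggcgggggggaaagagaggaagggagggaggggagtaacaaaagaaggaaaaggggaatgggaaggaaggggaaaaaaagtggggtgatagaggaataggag
Hoxb8: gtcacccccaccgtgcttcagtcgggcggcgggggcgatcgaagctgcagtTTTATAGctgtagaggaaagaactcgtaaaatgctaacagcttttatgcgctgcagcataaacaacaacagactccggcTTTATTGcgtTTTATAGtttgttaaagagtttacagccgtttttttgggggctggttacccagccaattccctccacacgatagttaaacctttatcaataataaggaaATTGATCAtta

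Windows were at hand for 22 of the Hox genes. TGATNNAT was found in those of Hoxa2, Hoxb1, Hoxb8 and Hoxd11 and in 7.7% of 32851 windows of all genes, TGACAG in those of Hoxa2 and Hoxa3 and in 15.9% of all, and TTTATNG in those of Hoxb8 and Hoxd4 and in 9.8% of all. These matches are a description of the letters in the windows, and genes on in mesenchyme were found both with and without them.

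Of the 576 cells, 549 passed the filters of the study, with 224791 to 1512669 counts per cell. The median was 1056623 counts and 5788 genes in the Nkx2.5 line, 896064 counts and 7271 genes in the Nkx3.2 line, and 807946 counts and 7042 genes in the Prox1 line. Clusters drawn without Hox genes were named from marker lists as epithelial-like (87 cells), endocrine-like (19 cells), mesothelial-like (28 cells) and mesenchymal-like (413 cells), and are called by these names without the ending below. Epithelial and endocrine cells were all from the Prox1 line, and 20 of the 28 mesothelial cells were from plate 7B. As the names came from these lists, the markers of a class are no separate check of its name. At 10 CPM or more were 14 of 14 epithelial markers in epithelial cells, 9 of 10 mesenchymal markers in mesenchymal cells and 9 of 10 mesothelial markers in mesothelial cells. Mesothelial cells also held 6 of 10 mesenchymal markers at that level, and epithelial cells 1 of 10 (Col1a2, a collagen gene). A level in CPM is the count of a gene, summed over all cells of the group named, scaled so that all genes together make 1e6, and the 95% intervals (exact Poisson for levels, exact binomial for shares of cells) cover counting error only. A gene was taken as on in a line where it reached 10 CPM on both plates.

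The mesenchyme of all 3 lines carried an anterior Hox code. By this rule 10 Hox genes were on in the Nkx2.5 line, where 24.5% of all genes were on, 9 in the Nkx3.2 line (25.2% of all genes) and 11 in the Prox1 line (24.3% of all genes). A core of 8 was on in every line, namely Hoxa2, Hoxa3, Hoxa5, Hoxb2, Hoxb5, Hoxb6, Hoxb7 and Hoxc4. In all, 12 of the 39 genes were on in some mesenchyme, and of the 4 outside the core, among them Hoxa4, Hoxb3 and Hoxc5, each was on in 1 or 2 lines. Of the 15 genes of paralog groups 1 to 5, 10 were on, against 2 of the 8 genes of groups 6 to 8 and none of the 16 genes of groups 9 to 13. The genes that were on lay in the Hoxa, Hoxb and Hoxc clusters, and 0 of the 9 Hoxd genes were on. No Hox gene was on in epithelium, where 9164 of the 36658 genes (25%) were on, whereas 8 reached 10 CPM in the mesothelial cells of plate 7B (26.4% of all genes).

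**Figure D1:**
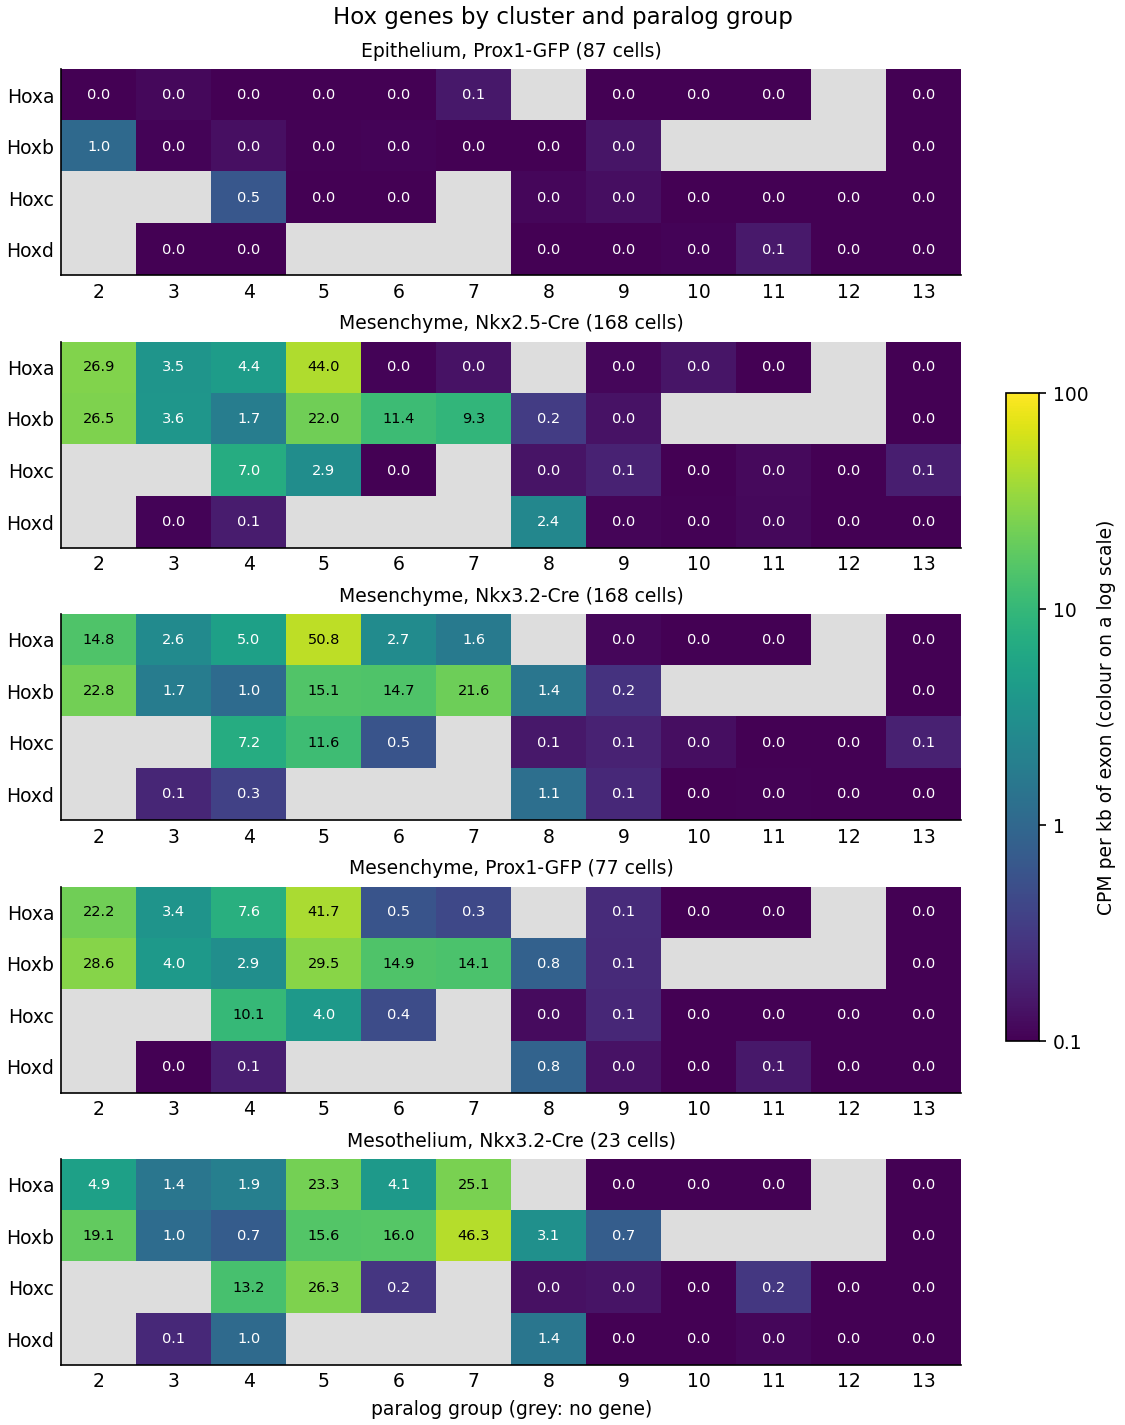
Level of each Hox gene as CPM per kb of exon (color, log scale, with the value printed), by cluster (rows) and paralog group from 2 on (columns), in the epithelium, the mesenchyme of each line and the mesothelium of the Nkx3.2 line, both plates of a line summed. Signal in mesenchyme and mesothelium lies mainly in groups 2 to 5 of the Hoxa cluster, groups 2 to 7 of the Hoxb cluster and Hoxc4 and Hoxc5, with Hoxa7 added in mesothelium, and the epithelium is at 0.95 CPM per kb or below.

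To compare genes with each other, levels were divided by the exon length. In all mesenchymal cells together, Hoxa5 was the highest Hox gene with 46.3 CPM per kb, followed by Hoxb2 with 25.4, Hoxa2 with 21.4 and Hoxb5 with 20.4 CPM per kb. Hoxb7 stood at 14.9, Hoxb6 at 13.3, Hoxc4 at 7.57 and Hoxc5 at 6.48 CPM per kb. Group 5 was thus the highest paralog group, with 73.2 CPM per kb over its 3 genes, against 46.8 for group 2, 15.6 for group 7, 14.7 for group 6 and 14.5 for group 4. Group 3 was lower, at 6.13 CPM per kb, and group 8 was at 2.45, so the level did not change evenly along the clusters. The Hoxa and Hoxb clusters gave similar totals of 83.4 and 80.4 CPM per kb, the Hoxc cluster 14.5 and the Hoxd cluster 1.91 CPM per kb.

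Groups 1 and 2 are known for patterning the hindbrain and the neural crest. Hoxa2, which sets the identity of the branchial arches, was at 43.2 and 52.8 CPM in the mesenchyme of plates 6A and 6B, 31.7 and 17.7 CPM on 7A and 7B, and 37.8 and 40.6 CPM on 8A and 8B. Its paralog Hoxb2 was at 70.1 and 116.7 CPM, 77.7 and 82.3 CPM, and 133.2 and 76.9 CPM on the same plates, and was the Hox gene found in most mesenchymal cells (319 of 413, 77.2%). The lines overlapped for Hoxb2, and for Hoxa2 the Nkx3.2 plates were the lowest. Hoxb1 stayed between 0.114 and 6.31 CPM, and on 6A, 6B and 8A more than 90% of its counts came from 1 cell.

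Among the genes of group 3, which act in the pharyngeal organs and the neck, Hoxa3 was at 13.7 and 29.5 CPM on 6A and 6B, 14.8 and 16.8 CPM on 7A and 7B, and 20.7 and 20.6 CPM on 8A and 8B. Hoxb3 was at 12.9 and 18.2, 7.25 and 7.32, and 15.1 and 18.4 CPM on these plates, lowest on both Nkx3.2 plates. In group 4, Hoxc4 was at 12.5 and 24.2, 21.2 and 14.1, and 32 and 21.7 CPM. Hoxa4 passed 10 CPM only on the Prox1 plates (13.2 and 11.4 CPM, against 6.96 to 9.34 CPM elsewhere), and Hoxb4 only on 8B (10.1 CPM, against 2.22 to 5.09 CPM on the other plates). Levels of Hoxb4 were low although 38.5% of the 413 cells had a count.

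Group 5 acts in the lung, the diaphragm and the neck and thoracic skeleton. Hoxa5, needed for the mesenchyme of the airways and gut, was at 47.3 and 120.5 CPM on 6A and 6B, 94.1 and 97.1 CPM on 7A and 7B, and 101.95 and 62.1 CPM on 8A and 8B, in 245 of 413 cells (59.3%). Hoxb5, which also acts in the innervation of the gut, was at 61.3 and 61.5, 39.9 and 45.4, and 79.8 and 83.9 CPM. The Hoxb5 plates of a line lay close together and the lines were ordered, whereas the 2 Nkx2.5 plates spanned the other lines for Hoxa5. Hoxc5 was the most uneven gene that was on, at 0.428 and 18.01 CPM on 6A and 6B, 42.4 and 25.2 CPM on 7A and 7B, and 6.76 and 16.2 CPM on 8A and 8B. It was found in 1 of 87, 9 of 81, 29 of 92, 19 of 76, 2 of 33 and 7 of 44 mesenchymal cells of these plates.

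**Figure D2:**
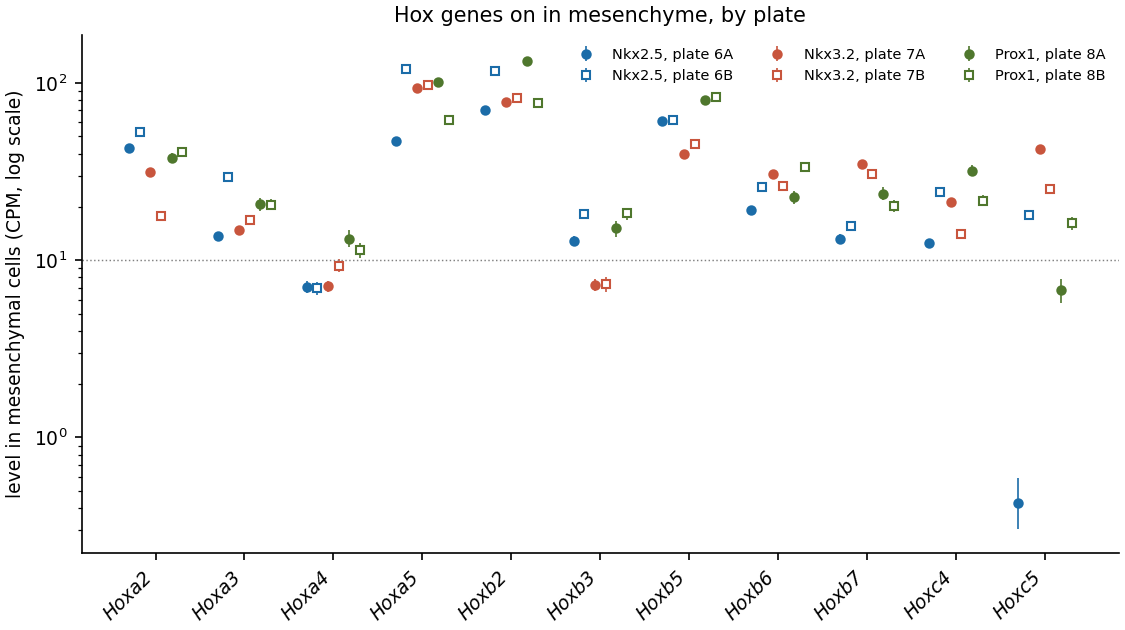
Level in mesenchymal cells (CPM, log scale) of 11 Hox genes of groups 2 to 7 that were on in at least 1 line, for each of the 6 plates, with exact 95% Poisson intervals and a dotted line at 10 CPM. Hoxa5, Hoxb2 and Hoxb5 are above 39 CPM on every plate, and Hoxc5 runs from 0.428 CPM on plate 6A to 42.4 CPM on plate 7A.

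Groups 6 to 8 mark the trunk. Hoxb6, a gene of the lateral plate mesoderm, was at 19.2 and 25.9 CPM on 6A and 6B, 30.7 and 26.2 CPM on 7A and 7B, and 22.7 and 33.8 CPM on 8A and 8B. Hoxb7, its neighbor, was at 13.2 and 15.6, 34.97 and 30.7, and 23.8 and 20.3 CPM, and the 3 lines did not overlap. On 8A, however, Hoxb7 was found in 4 of 33 cells and 66% of its counts came from 1 of them. Hoxb8 marked the end of the expressed stretch of the Hoxb cluster, at 0.80 and 0.436, 3.72 and 3.62, and 1.2 and 2.53 CPM, in 5, 3, 18, 22, 4 and 6 cells. The step from Hoxb7 to Hoxb8 thus held on all 6 plates. The Hoxa genes of these groups stopped earlier, with Hoxa6 at 0 to 2.82 CPM and Hoxa7 at 0.0727 to 5.60 CPM, the higher values of both on the Nkx3.2 plates. Hoxd8 was the only Hoxd gene above 2 CPM in mesenchyme, at 8.09 and 4.75, 4.39 and 1.10, and 5.42 and 0 CPM, in 35 of 413 cells (8.47%).

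The remaining 27 genes were not on in any mesenchyme. Of these, 10 reached 1 CPM in some group of 10 or more cells, namely Hoxa6, Hoxa7, Hoxa9, Hoxb1, Hoxb4, Hoxb8, Hoxb9, Hoxc6, Hoxd4 and Hoxd8. The other 17 stayed under 1 CPM in every such group, among them 14 of the 16 genes of groups 9 to 13, which pattern the lumbar and sacral region, the limbs and the urogenital and hindgut ends. Hoxa11, Hoxa13, Hoxb13, Hoxc12, Hoxd1, Hoxd12 and Hoxd13 had no count in any passing cell, where 3 counts would have been 0.00788 CPM in mesenchyme. Summed over the 16 genes, groups 9 to 13 were at 0.628 to 1.99 CPM on the 6 mesenchymal plates, and a count was found in 28.8% of mesenchymal and 25.3% of epithelial cells. The highest single value among them in these groups was that of Hoxb9, a thoracic gene, in mesothelial cells of plate 7B (2.04 CPM, 91% of it from 1 cell).

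Prox1-EGFP plates held epithelium and mesenchyme side by side and gave the comparison between germ layers within a line. The 39 genes summed to 6.50 CPM on 8A and 4.997 CPM on 8B in epithelium, against 522 and 433 CPM in mesenchyme. A gene was called where it differed by 2-fold or more the same way in all 4 pairs of plates, with 10 CPM or more on both plates of the higher group. Of the 11 Hox genes at that level in either group, 0 were called higher in epithelium (9.54% of the 10182 genes tested). The other way, 11 were called higher in mesenchyme (8.89% of all). All 11 reached that level through mesenchyme alone, as no Hox gene was above 3.71 CPM on either plate in epithelium. These counts therefore followed from the filter and the low epithelial levels and cannot be read against the shares of all genes. The median mesenchyme to epithelium ratio of these 11, picked by their level in mesenchyme, was at least 533. Genes without epithelial counts were taken at their lower bound. The median epithelium to mesenchyme ratio of all genes was 0.999. In epithelium Hoxb2 kept the highest level, 3.71 and 2.87 CPM on 8A and 8B, but in 6 of 87 cells, so that mesenchyme was 30.1-fold higher. Hoxc4 was at 1.37 and 1.44 CPM in 6 of 87 epithelial cells, 18.5-fold below mesenchyme. Most of these counts sat in few cells, 75% of those of Hoxb2 on 8A and all of those on 8B in 1 cell each. Hoxa2, Hoxa4, Hoxa5 and Hoxb7 had 0 counts in 87 epithelial cells, which put mesenchyme at least 969-fold, 297-fold, 1919-fold and 533-fold higher when 3 counts over the group were taken as the floor. Hoxb5 and Hoxb6 had 1 count each. The median number of genes detected at 100000 counts was 6208 in epithelial cells and 5237 in Prox1 mesenchyme, and the amount of RNA per cell was not measured. The 10 mesenchymal markers summed to 25.2 CPM in epithelium and 4633 CPM in the mesenchyme of all 3 lines together. The part of RNA from neighboring cells in the low epithelial Hox counts was not tested. The 19 endocrine cells were alike, with a sum of 10.03 CPM, of which Hoxb2 gave 6.79 CPM in 2 cells.

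**Figure D3:**
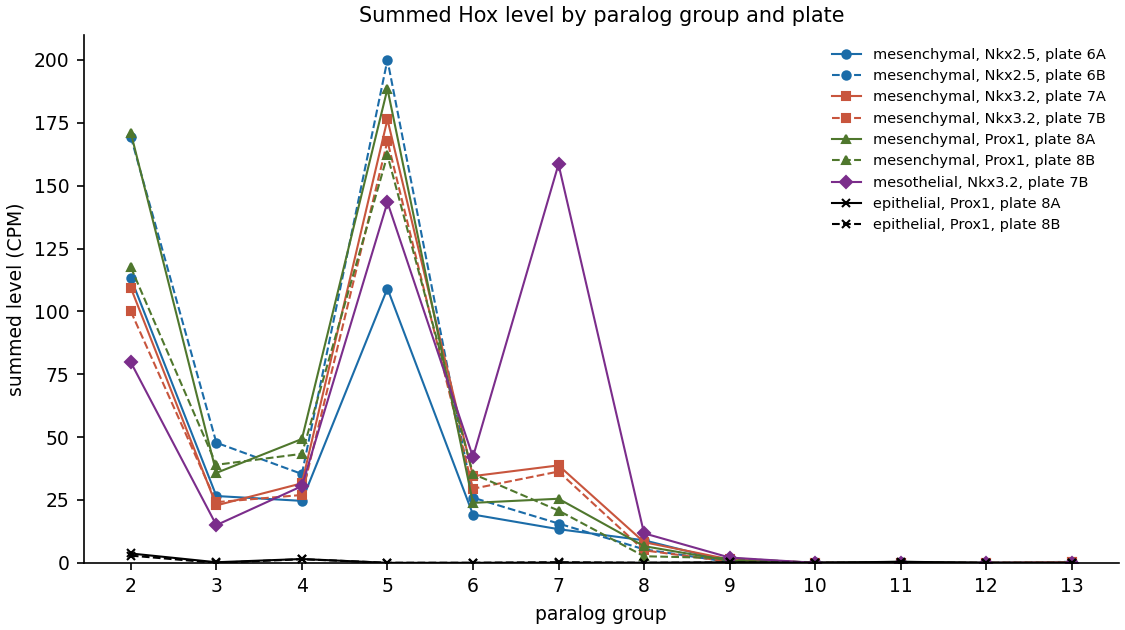
Summed level (CPM) of the genes of each paralog group from 2 on, on each plate, for the mesenchyme of the 3 lines, the mesothelium of plate 7B and the epithelium of plates 8A and 8B. Mesenchyme peaks at groups 2 and 5 on every plate, mesothelium also reaches 158.5 CPM at group 7, and epithelium stays at or below 3.71 CPM.

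The line comparison addressed whether mesenchyme with an Nkx2.5 history and mesenchyme with an Nkx3.2 history carry the same code. The summed level overlapped, at 328 and 525 CPM on 6A and 6B against 436 and 399 CPM on 7A and 7B. Of 11 Hox genes at 10 CPM or more on both plates of either line, 0 were called higher in the Nkx2.5 line (1.25% of the 9667 genes tested) and 0 in the Nkx3.2 line (1.92% of all), with a median Nkx2.5 to Nkx3.2 ratio of 1.16 against 1.01 over all genes. The ratios were not flat along the clusters. Hoxa2 and Hoxb3 had Nkx2.5 to Nkx3.2 ratios of 1.82 and 2.12, whereas Hoxb6, Hoxb7 and Hoxc5 had ratios of 0.775, 0.431 and 0.249, and for Hoxa2, Hoxb3, Hoxb6, Hoxb7 and Hoxc5 the plates of the 2 lines did not overlap. These ratios did not follow the order of the groups, as Hoxc5 is of group 5. Hoxd8, of group 8, was higher on the Nkx2.5 plates, at 8.09 and 4.75 CPM against 4.39 and 1.10 CPM. Summed over groups 6 to 8 the Nkx2.5 plates were at 41.6 and 46.9 CPM and the Nkx3.2 plates at 81.4 and 70.8 CPM, with a count in 52.4% of Nkx2.5 and 83.3% of Nkx3.2 mesenchymal cells. Summed over groups 1 to 5 the plates overlapped, at 285 and 477 CPM against 353 and 328 CPM. No call followed from these differences, and calls that appear when a plate is left out changed with the plate. Without 6A Hoxb3 was called higher in the Nkx2.5 line, without 7A 2 genes, one of them Hoxa2, and without 6B or 7B Hoxb7 and Hoxc5 were called higher in the Nkx3.2 line. Nkx2.5 mesenchyme also had fewer genes per cell, with a median of 4500 at 100000 counts against 5843 in the Nkx3.2 line. The mix of cell states differed as well. Of the clusters described below, the mural-like one held 2 Nkx2.5 and 35 Nkx3.2 cells, and the M-SpP-like one 20 and 41. The part of these differences in the Hox values was not tested.

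Prox1-EGFP mesenchyme was compared with the same Nkx3.2 cells, so that these comparisons share them. Of 12 Hox genes at that level, Hoxb3 was called higher in the Prox1 line (1.13% of the 9621 genes tested), at 15.1 and 18.4 CPM against 7.25 and 7.32 CPM (2.34-fold), and 0 were called higher in the Nkx3.2 line (1.55% of all). The median ratio was 1.36, against 1.01 over all genes. The Hoxb3 call was lost without the cell that held most of its counts on each plate, although the ratio of the plate means was then 2.40 (2.30 with all cells). Hoxb5 was 1.96-fold higher in the Prox1 line, and Hoxc5 had a ratio of 0.346, neither of them called. The mix of states differed here too, with 6 mural-like cells in the Prox1 line and 35 in the Nkx3.2 line, and its part was not tested. Against Nkx2.5 mesenchyme, 0 of 11 were called higher in the Prox1 line (1.12% of all genes tested) and 0 in the Nkx2.5 line (1.01%).

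Mesothelium, the layer that covers the organ surface and that Upk3b and Wt1 mark, carried the code shifted toward group 7. The shift was not particular to mesothelium. The 6 M-III-like mesenchymal cells of the Nkx3.2 line, described below, also held Hoxa7 and Hoxb7 above the other mesenchyme. Mesothelial cells of that line in turn held 4 of 5 markers of the M-III list at 10 CPM or more. On plate 7B, 20 mesothelial cells could be set against 76 mesenchymal cells of the same plate, with 1 plate and thus no replicate. Hoxa7 was at 86.1 CPM (95% interval 81.6 to 90.8) in 16 of 20 mesothelial cells, against 5.60 CPM (5.01 to 6.24) in 9 of 76 mesenchymal cells, 15.4-fold higher. Hoxb7 was at 72.4 CPM in 18 of 20 cells against 30.7 CPM in 35 of 76, 2.36-fold higher, but 1.78-fold when the class of each cell was taken from its own markers. Hoxc5 was at 75.2 CPM in 12 of 20 cells against 25.2 CPM in 19 of 76, 2.98-fold higher, with 41% of its mesothelial counts from 1 cell. Every mesothelial cell had a count of a group 7 gene, against 33.4% of the mesenchymal cells of all 3 lines together. That share mixes lines and plates, and on 7B alone Hoxb7 was found in 35 of 76 mesenchymal cells. In the other direction, Hoxa5 was at 22.02 CPM against 97.1 CPM and Hoxa2 at 6.19 CPM against 17.7 CPM in mesothelium and mesenchyme of 7B. Hoxb2 (73.5 against 82.3 CPM), Hoxb5 (46.2 against 45.4 CPM), Hoxb6 (38.05 against 26.2 CPM) and Hoxc4 (24.8 against 14.1 CPM) differed by less than 2-fold. Of 10 genes at 10 CPM in either group, 3 were 2-fold or more higher in mesothelium (13% of the 10674 genes tested, 1384 genes) and 2 in mesenchyme (13.5% of all), with a median mesothelium to mesenchyme ratio of 1.23 against 1.01 over all genes. Among the 10, Hoxa7 reached that level through mesothelium alone and Hoxa2 through mesenchyme alone. Each could come out higher only in that group, so these counts follow in part from the filter.

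The sum over the 39 genes was 490 CPM in mesothelium of 7B and 399 CPM in its mesenchyme, of which groups 6 to 8 gave 212 and 70.8 CPM. Hoxb8 followed its neighbor at a lower level, with 7.02 CPM in 10 of 20 mesothelial cells against 3.62 CPM in 22 of 76 mesenchymal cells. The 8 mesothelial cells of plates 6A, 6B and 7A, which are too few for more than values, repeated the direction for group 7. In them Hoxa7 was at 29.8 CPM against 1.39 CPM in the mesenchyme of those plates, Hoxb7 at 76.8 against 21.5 CPM and Hoxc5 at 73.8 against 20.6 CPM. Hoxa2 was again lower, at 8.19 against 42.2 CPM, but Hoxa5 was not, at 89.3 against 86.6 CPM. In all, 5 of 13 genes were 2-fold or more higher in those 8 cells (15.8% of all genes tested) and 6 lower (24.2%). Per kb, Hoxb7 was the highest Hox gene of all mesothelial cells with 47.9 CPM per kb, before Hoxb2 with 26.3, Hoxa5 with 24.4, Hoxc5 with 24.2 and Hoxa7 with 23.03 CPM per kb.

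**Figure D4:**
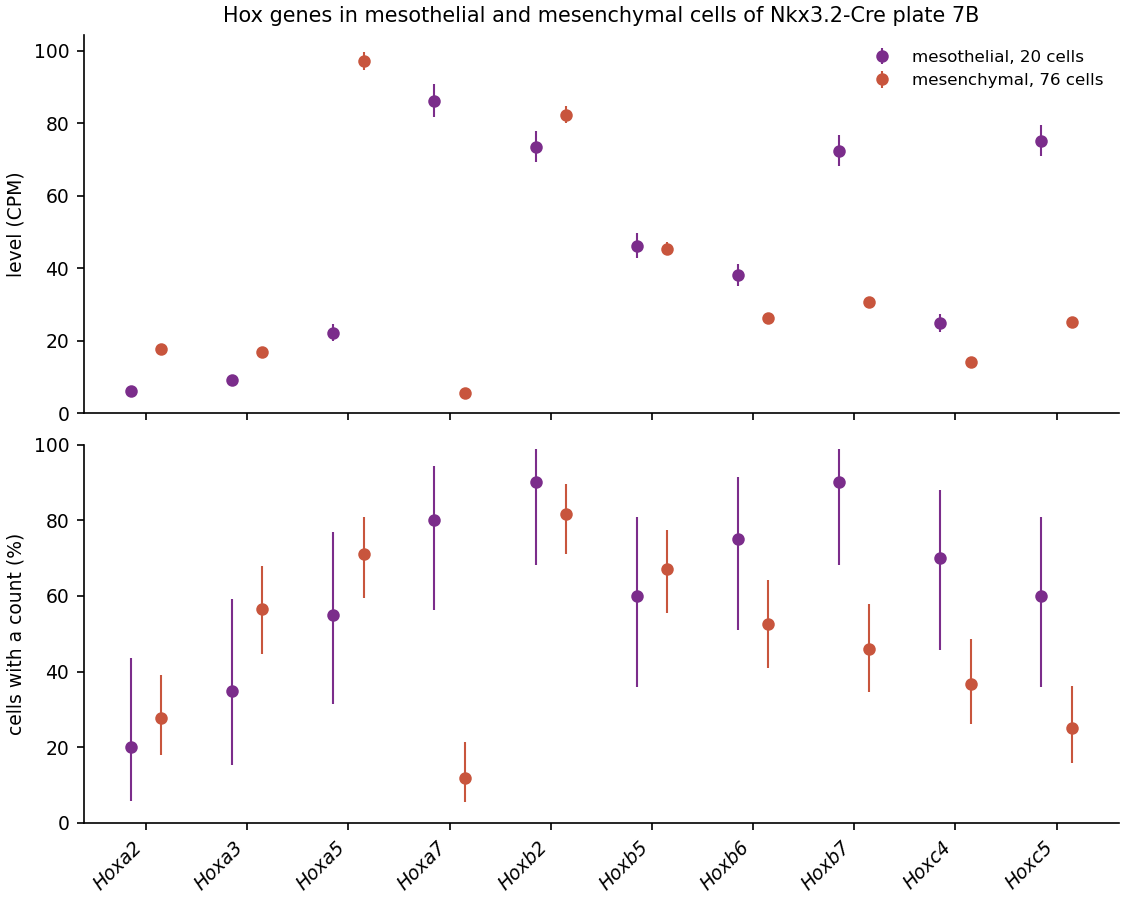
Level (CPM, top) and share of cells with a count (percent, bottom) of 10 Hox genes in the 20 mesothelial and 76 mesenchymal cells of plate 7B, with exact 95% intervals. Hoxa7, Hoxb7 and Hoxc5 are higher in mesothelium and Hoxa2 and Hoxa5 higher in mesenchyme, while the levels of Hoxb2 and Hoxb5 are close together.

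Within mesenchyme, clusters were compared with the other mesenchymal cells of the same line. The cluster named M-III-like from markers that include Isl1, Col14a1, Igf1 and Flrt3, genes of mesenchyme near the duodenum, held 18 cells of the Prox1 line (11 on 8A and 7 on 8B). Hoxb6 was at 37.8 and 170 CPM in them on 8A and 8B, against 15.7 and 10.9 CPM in the other 59 cells (7.21-fold). Hoxb7 was at 71.7 and 53.6 CPM against 1.60 and 14.7 CPM on 8A and 8B (6.38-fold). Few cells carried these values, as Hoxb6 was found in 10 and Hoxb7 in 6 of the 18 cells, and 1 cell gave 39% and 46% of the counts. Of 12 genes, 2 were called higher in the cluster (3.57% of the 9273 genes tested) and 0 lower (6.02% of all), with a median ratio of 0.984 against 0.993 over all genes. The Hoxb6 call was lost without the highest cell of each plate, at a ratio of the plate means of 5.67 (7.80 with all cells), when Hoxa3 and Hoxa4 were called lower. It was also lost without cells scored S or G2M, at a ratio of 4.91, and the 4 proliferation markers summed to 195 CPM in the M-III-like cells and 1157 CPM in the other 59 cells. Both calls were lost when the cells of the line were instead split into 3 equal parts along the M-III minus M-SpP marker score, at ratios of 3.004 for Hoxb6 and 2.54 for Hoxb7. Calls also changed without 8A, to 5 higher and 3 lower, and without 8B, to 4 higher and 4 lower. The 6 M-III-like cells of the Nkx3.2 line had Hoxb6 at 68.8 against 27.9 CPM and Hoxb7 at 67.5 against 32.4 CPM in the other mesenchyme, and Hoxa7 at 103.9 against 1.85 CPM in 5 of 6 cells. In these 6 cells the 10 mesothelial markers summed to 166.3 CPM (2 of 10 at 10 CPM), against 86.3 CPM (1 of 10) in the other mesenchyme and 2602 CPM (9 of 10) in mesothelium of that line. In all, 6 of 13 genes were 2-fold or more higher in them (21.5% of the genes tested) and 2 lower (27.6%).

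At the other end, the cluster named M-SpP-like from Nkx2-5, Tlx1, Kazald1, Npnt and Robo2, genes of the mesenchyme beside the spleen, held 41 cells of the Nkx3.2 line and 18 of plate 6A. Npnt, however, was not particular to this cluster. It reached 371 CPM among M-III-like and 292 CPM among mesothelial cells of the Nkx3.2 line. Among the 41 M-SpP-like cells of that line the highest of these 5 genes was Kazald1 with 244 CPM, so Npnt stood lower. Macrophage genes such as C1qb led this cluster as drawn, but only through 1 cell of plate 8A with immune markers, which was set apart and enters no value here. Without it Robo2 and Kazald1 led, and the 5 immune markers summed to 1.88 CPM in the 41 cells. In the Nkx3.2 line its Hox levels tended to lie below those of the other mesenchyme, with a median ratio of 0.566 over 9 genes against 0.968 over all genes, but 0 were called higher (0.453% of the 9486 genes tested) and 0 lower (2.70% of all). Hoxb5 was at 16.8 and 24.4 CPM against 46.3 and 54.5 CPM on 7A and 7B, and Hoxa5 at 66.1 and 42.9 CPM against 101.9 and 120.5 CPM, so that the plates did not overlap. On 6A the 18 cells were lower still, with Hoxa5 at 5.59 against 57.9 CPM, Hoxb5 at 13.5 against 73.4 CPM and Hoxa3 at 0.447 against 17.1 CPM. Hoxb2 stood apart there, at 62.2 against 72.1 CPM. Of 11 genes on that plate, 0 were 2-fold or more higher (10.3% of the 10301 genes tested) and 8 lower (16.3% of all), with a median ratio of 0.162 against 0.986 over all genes. Some of the 11, such as Hoxa5 and Hoxa3, reached 10 CPM through the other mesenchyme alone and so could only come out lower. The counts and the median ratio therefore follow in part from the filter. The cells of each line were also cut into 3 equal parts along the M-III minus M-SpP score. As the cuts were made within each line, the ends are not alike. The median score at the M-SpP end was -3.1 for Nkx2.5, -3.32 for Nkx3.2 and -0.772 for Prox1. From the M-SpP end to the M-III end, groups 6 to 8 summed to 43.9, 29.8 and 59.1 CPM for Nkx2.5, to 51.4, 75.9 and 106.4 CPM for Nkx3.2 and to 21.2, 57.2 and 96.9 CPM for Prox1. The part at the M-III end was the highest in all 3. For Nkx2.5, however, Hoxb6 was at 25.8 CPM at both ends and Hoxb7 at 14.5 and 17.6 CPM. Hoxd8, found in few cells, was at 3.22 CPM at the M-SpP end and 13.9 CPM at the M-III end of that line. Groups 1 to 5 summed to 237, 414 and 488 CPM for Nkx2.5, 259.5, 374 and 401 CPM for Nkx3.2 and 347, 492 and 389 CPM for Prox1 in the same order, so a lower sum at the M-SpP end was not particular to groups 6 to 8. These parts pool the plates of a line. In the Nkx2.5 line the M-SpP-like cells were 18 on 6A and 2 on 6B. Its summed Hox level was 328 CPM on 6A and 525 CPM on 6B, and the part of plate in its values along the score was not tested. The mural-like cluster, named from vascular smooth muscle genes such as Acta2 and Tagln, held 35 cells of the Nkx3.2 line. The 5 mural markers summed to 723 CPM there. They summed to 493 CPM in all Nkx3.2 mesenchyme outside the M-III-like cluster, the mural-like cells included. Rgs5, also on that list, went the other way. It reached 376 CPM in that mesenchyme, but in the mural-like cells no mural marker was above Acta2, with 313 CPM. Hoxc5 was at 107.2 and 63.4 CPM in the mural-like cells, against 27.7 and 13.9 CPM in the other mesenchyme of 7A and 7B (3.90-fold). It was the 1 gene of 9 called higher (1.64% of the 9617 genes tested), with 0 lower (2.05% of all).

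Single cells held combinations of these genes. With every cell thinned to 100000 counts, the median number of Hox genes detected was 0 in epithelial cells, of which 86.2% (77.1 to 92.7%) had none, and 0 in endocrine cells (73.7% with none). It was 4 in Nkx2.5, 6 in Nkx3.2 and 5 in Prox1 mesenchyme and 7 in the 23 mesothelial cells of the Nkx3.2 line. At full depth the medians were 0, 1, 5, 7, 6 and 8 in the same order. Of 413 mesenchymal cells, 4 had no Hox gene after thinning, and all of these were from the Nkx2.5 line. The highest paralog group detected in a cell was most often group 5 in Nkx2.5 mesenchyme (33.9% of cells) and Prox1 mesenchyme (41.6%) and group 7 in Nkx3.2 mesenchyme (36.3%). In mesothelial cells it was group 7 in 19 and group 8 in 7 of 28. This order depended on depth. Without thinning, group 9 led in Nkx2.5 mesenchyme (22.02% of cells, 21.4% for group 5) and Prox1 mesenchyme (28.6%, 25.97% for group 5), group 8 in Nkx3.2 mesenchyme (29.8%, 23.8% for group 7), and group 8 in 12 and group 7 in 9 of the 28 mesothelial cells. The classes differed in the number of genes of any kind at this depth, with medians of 6451 in mesothelial cells of the Nkx3.2 line and 5843 in its mesenchyme, and the part of this in the counts of Hox genes was not tested.

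**Figure D5:**
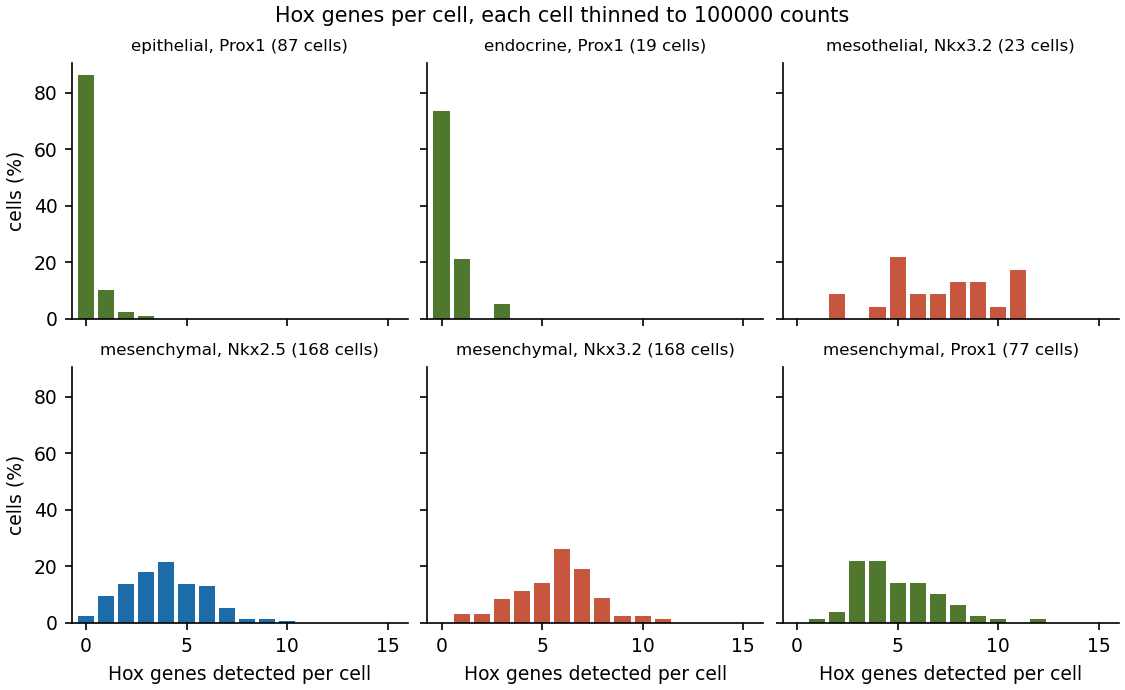
Share of cells (percent) by the number of Hox genes detected with each cell thinned to 100000 counts, for each class and line. Epithelial and endocrine cells pile up at 0, and mesenchymal and mesothelial cells spread around medians of 4 to 7.

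Hox proteins bind DNA with TALE homeodomain cofactors of the Pbx, Meis and Pknox families. All 11 TALE genes of the list were in the tables, and of the 10 at 10 CPM or more in either class of the Prox1 line 0 were called higher in epithelium (9.54% of all genes) and 4 in mesenchyme (8.89% of all genes). Meis1 was at 120 and 126.6 CPM in epithelium against 503 and 503 CPM in mesenchyme. Others of the 4 were Meis3 (18.1 and 16.1 CPM against 46.9 and 85.5 CPM) and Pknox2 (2.84 and 0.0574 CPM against 63.2 and 59.2 CPM). The other 6 were not called, among them Tgif1, at 115.2 and 103.7 CPM in epithelium against 59.5 and 105.8 CPM in mesenchyme. Of the Cdx and ParaHox genes, relatives that act on or beside the Hox clusters, Pdx1, the pancreas and duodenum regulator, was called higher in epithelium (160 and 113.05 CPM against 0 and 0 CPM), and Cdx1, Cdx2, Cdx4, Gsx1 and Gsx2 were at 0 in all these groups. Pdx1 was on the marker list that named the epithelial class, and it passed the filter through epithelium alone. Its call was therefore built in and is no separate result. Of the genes beside the clusters, Skap2 was called higher in mesenchyme (27.1 and 34.1 CPM on 8A and 8B in epithelium, against 69.1 CPM on 8B, the lower of the mesenchymal values), and 0 of 2 others at that level were called. Of 10 Polycomb and trithorax genes, which keep Hox clusters silent or active, 0 were called either way, beside 9.54% of all genes higher in epithelium and 8.89% in mesenchyme, shares at which 0 of 10 says little about these genes. None of the genes of these lists was called between the Nkx2.5 and Nkx3.2 lines.

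Some Hox gene models share exons with other models, and the protocol does not mark the strand. The antisense gene Hoxb3os, not analysed here, covers 52.9% of the exon bases of Hoxb3 and 27.3% of those of Hoxb2, and Hoxaas3 covers 20.4% of those of Hoxa7, so that reads of either strand could not be told apart there. The readthrough models Gm28308 and Gm28230, on the same strand, cover 15.04% of the exon bases of Hoxa2 and 53.1% of those of Hoxd3, and were at 1.34 and 0.0368 CPM in mesenchyme. Fewer cells that express a gene and less RNA per cell both lower a summed level, for which reason shares of cells are given beside the levels.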

How the data were processed

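The series holds Smart-seq2 libraries of GFP-positive cells sorted 1 per well. According to the submitters' processing notes and the methods, the authors trimmed reads with Trim Galore 0.6.5, quantified transcripts with kallisto on GRCm38 (mm10) and summed them to genes with tximport. They deposited estimated counts per gene and cell, not normalized, and 36.1% of the values above 0 were not whole. The release of the annotation used is not given in the sources used here. Without molecular identifiers, PCR copies were counted. Here the estimated counts were rounded, and symbols were taken from GENCODE M21 (35945 of 36658 identifiers). All columns were matched to a sample (0 unmatched), and no cells held identical values.

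As in the methods, a cell was kept if mitochondrial counts made up 30% or less of its total, its total was 100000 or more and 1000 or more genes were detected (549 cells, 27 left out). Clusters were drawn with Seurat 5.3.0 in R 4.3.3 on log-normalized counts, with 2000 variable genes of which the 2 Hox genes were removed, the difference of the cell cycle scores regressed out, 20 principal components and resolution 1.9. Each cluster took the class of its highest marker list. For 5 cells the class from their own markers differed from that of the cluster, and 2 of them were set apart after their markers had been seen. No doublet caller was run.

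Counts were summed per class, line and plate and scaled to CPM (Python 3.11.15, numpy 2.4.6, pandas 2.3.3, scipy 1.17.1, edgeR 4.0.16 for TMM factors). A gene was on at 10 CPM on both plates with at least 10 cells each. A gene was called at a ratio of 2 in all 4 pairs of plates, or, with 1 plate or few cells, at a ratio of 2 between the 2 groups, and the text then says 2-fold or more. Ratios are of the summed levels of the plates. Cells were thinned to 100000 counts with a fixed seed. The call rule and the coverage of the Poisson intervals were checked on simulated counts with known values, and the totals after thinning on some of the cells. Genes are named in full where they were on or called, and otherwise by range. Exceptions named after their values had been seen are Hoxb1, Hoxb4, Hoxb8, Hoxb9, Hoxa6 and Hoxd8 and the values of single cells. The genes, lists and tests were chosen with earlier results of these data known. No p-value was computed. The values of a few genes are not reported here, although counts and sums include them. Alternatives were another filter, classes from single cells, the mean over cells, TMM scaling, other thresholds, cells out of cycle, other clusters and each plate left out. Keeping the 2 cells set apart, and leaving out the highest cell of each gene, were added after the data were examined.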

Additional observations from a re-analysis of the deposited data

How the results depend on the processing

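No paired analysis was possible because the replicate numbers only name cells in accession order, each line is 1 sample and no test was run. Within a line, calls needed the same direction in all pairs of plates, and so also within each plate. Of 221 alternative values of the main results, 49 moved by more than the spread of the plates or more than 1.5 times the count, and no gene called with all plates and cells turned direction. Hoxa5, not called there, was called higher in M-III-like cells of the Prox1 line without 8A and lower without 8B. The epithelium had 0 Hox genes on under all 9 alternatives, and TMM scaling changed no call. Classes from single cells gave 1 gene higher in Nkx3.2 than in Nkx2.5 mesenchyme (Hoxb7), 0 higher in Prox1-GFP than in Nkx3.2 mesenchyme, and a median of 8 genes per mesothelial cell, and Hoxb7 was no longer 2-fold higher in mesothelium (1.78). The mean over cells gave a mesothelial sum of 505 CPM, 0 higher in Prox1-GFP, and 1 higher in mesenchyme than in mesothelium. A ratio of 1.5 gave 1 higher in each of the Nkx2.5 and Nkx3.2 lines, and 2 higher in Prox1-GFP with 1 higher in Nkx3.2. A ratio of 3 gave 0 higher in Prox1-GFP, 1 higher in mesothelium and 1 higher in mesenchyme. A filter at 1 CPM gave 3 higher in Nkx3.2 than in Nkx2.5 (Hoxa6, Hoxa7 and Hoxb8), 1 higher in Nkx3.2 than in Prox1-GFP, and 7 higher in mesothelium with 6 higher in mesenchyme. Without cells scored S or G2M 0 were higher in Prox1-GFP, although the Hoxb3 ratio of the plate means rose from 2.30 to 2.998. On at 5 CPM were 13 genes in mesothelium, and on at 20 CPM 4 in Nkx2.5 mesenchyme. Detected at 5 counts, the medians per cell were 4 in mesothelium and 2, 3 and 3 in Nkx2.5, Nkx3.2 and Prox1 mesenchyme, and unthinned 8, 5, 7 and 6. For M-III-like cells of the Prox1 line, clusters at resolution 1.0 gave 1 gene lower and 3 equal parts along the score 0 higher. Each gene without its highest cell on each plate, added after the data were examined, gave 1 higher in Nkx3.2 than in Nkx2.5, 0 higher in Prox1-GFP, and 1 higher with 2 lower in M-III-like cells.

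With 1 plate left out at a time, 0 to 2 genes were higher in the Nkx2.5 and 0 to 2 in the Nkx3.2 line. In the Prox1-GFP comparison 1 to 3 were higher in Prox1-GFP and 0 to 1 in Nkx3.2, and in M-III-like cells 4 to 5 were higher and 3 to 4 lower. The median per cell was 7.5 in mesothelium without 7A and 4 to 5 in Prox1 mesenchyme. The mesothelial comparison gave no value without 7B. Leaving out a plate leaves fewer pairs that must agree in direction. The cause of the other changes was not tested. Depth limits the genes found in few cells, such as Hoxc5 and Hoxd8, for which 1 cell can give over 40% of the counts of a plate.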
